A study of Mus musculus with 8 samples.

Results

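Genomic imprinting leaves a gene active on the copy from only 1 parent, through DNA methylation laid down in the egg or sperm, and many imprinted genes are most active in the brain and the endocrine system. The genes described here are 9 imprinted genes known for neural expression in the mouse, all of them active from the paternal copy: Nap1l5, Nnat, Snrpn, Ndn, Magel2, Peg10, Sgce, Zdbf2 and Impact. They were taken by gene symbol and make up 9 of the 18193 genes measured with a probe set of their own. These 9 genes had 19 probe sets listed under 1 symbol, and 6 more were listed under both Snurf and Snrpn. The question put to the data was how the RNA of these genes differed between menin-null and wild-type cells, before and after differentiation. The arrays measured total RNA of both parental copies together, so nothing here bears on which copy was active.

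RNA was measured on 8 Affymetrix whole-genome mouse arrays in 4 groups of 2: menin-null and wild-type PILECs (pancreatic islet-like endocrine cells), and menin-null and wild-type mESCs (mouse embryonic stem cells). Menin, the product of Men1, is a subunit of complexes that methylate histone H3 at lysine 4. All cells had the 129S6/SvEvTac background. The Men1-KO line 3.2N gave the menin-null cells and the line TC1 the wild-type cells. Each group's arrays came from 2 independent cultures, so p-values measure the spread between cultures, and genotype and cell line cannot be told apart. The mESCs had been grown on irradiated feeder fibroblasts, which were then removed. PILECs were made from the mESCs in culture through embryoid bodies, precursor expansion and a last step with nicotinamide.

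The values are the deposited log2 signals, which ran between 3.26 and 15.2 over the arrays. Differences between groups are on the log2 scale, with the standard error (SE) of the limma fit, and means are given with their SD (n = 2). A gene is said to rise or fall where its p-value was under 0.05 after Benjamini-Hochberg adjustment over the 18193 genes. A mean of 7 was taken as the lower limit of expression. This limit was chosen here, with no background measured, and a fold against a group below it is approximate. The arrays of a group correlated at 0.993 to 0.997 across all 45101 probe sets, which are not independent replicates.

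Men1 itself had log2 signals of 7.95 and 8.02 in menin-null PILECs, against 10.06 and 9.92 in wild-type PILECs. Menin-null mESCs had 7.77 and 7.82, against 9.90 and 9.97 in wild-type mESCs. The gene was 4.01-fold lower in menin-null PILECs (adjusted p = 7.38e-05) and 4.42-fold lower in menin-null mESCs (adjusted p = 7.07e-05). All 12 pluripotency markers of the list used fell in PILECs relative to mESCs in both genotypes. The label of the PILECs was met only in part by these RNA values. Of 15 measured islet endocrine markers, 10 rose and 1 fell in menin-null PILECs relative to the mESCs. In wild-type PILECs 8 rose and 2 fell. The hormone gene Sst rose in both genotypes, to means of 8.10 in menin-null and 9.06 in wild-type PILECs. Ins2 had means of 7.37 and 7.23 there, and its rise passed in neither genotype. The hormone genes Gcg, Ppy and Iapp, and Pdx1, Slc2a2 and Pcsk1, had means under 7 in all 4 groups. The paper's own evidence for the label was RT-PCR of islet transcripts, NeuroD1 protein and C-peptide staining. Of 15 neuron markers, 14 rose in menin-null PILECs and all 15 rose in wild-type PILECs relative to the mESCs.

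The promoters of the 4 genes on which the results below turn most are shown as the 250 bases before the annotated transcription start, from RefSeq (GRCm38.p6), in the direction of the gene. Capitals mark CpG dinucleotides, the bases at which methylation differs between the parental copies of imprinted control regions. The Nnat window is chr2:157559828-157560077 on the plus strand and the Nap1l5 window is chr6:58907127-58907376 on the minus strand. The Magel2 window is chr7:62376729-62376978 and the Ndn window is chr7:62348027-62348276, both on the plus strand.
Nnat: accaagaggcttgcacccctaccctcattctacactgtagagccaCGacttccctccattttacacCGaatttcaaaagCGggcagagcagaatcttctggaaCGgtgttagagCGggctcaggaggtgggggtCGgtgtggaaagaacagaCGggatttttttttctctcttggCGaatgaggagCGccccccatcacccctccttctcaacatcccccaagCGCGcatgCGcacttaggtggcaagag
Nap1l5: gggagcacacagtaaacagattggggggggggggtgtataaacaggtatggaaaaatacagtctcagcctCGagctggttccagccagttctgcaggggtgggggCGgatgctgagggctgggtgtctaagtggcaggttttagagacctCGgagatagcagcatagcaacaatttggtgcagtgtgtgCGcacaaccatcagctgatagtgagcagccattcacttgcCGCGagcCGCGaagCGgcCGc
Magel2: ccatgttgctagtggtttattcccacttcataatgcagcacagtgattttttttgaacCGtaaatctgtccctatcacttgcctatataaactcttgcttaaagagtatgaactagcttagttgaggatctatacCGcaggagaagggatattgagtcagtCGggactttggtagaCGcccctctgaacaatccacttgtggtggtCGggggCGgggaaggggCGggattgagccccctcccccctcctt
Ndn: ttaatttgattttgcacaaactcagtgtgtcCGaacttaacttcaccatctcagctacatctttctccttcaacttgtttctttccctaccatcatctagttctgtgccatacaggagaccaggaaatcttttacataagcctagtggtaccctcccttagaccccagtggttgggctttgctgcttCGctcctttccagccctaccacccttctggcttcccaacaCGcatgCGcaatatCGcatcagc

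The Nnat window held 12 CpGs, that of Nap1l5 10, that of Magel2 7 and that of Ndn 5, where the median over 32851 promoter windows of the same length was 6. Searched on both strands, TGCCGC, the core of the sequence bound by the imprint-protecting zinc finger protein ZFP57, occurred once in the Nap1l5 window, starting 24 bases before the transcription start, and in no window of the other three. It occurred in 8.7% of all windows. The GC box GGGCGG, found in 32.7% of all windows, occurred once for Nap1l5 and at 2 places for Magel2. TATAAA, the letters of the TATA box, found in 12.4%, occurred once for each of these genes. Both TATAAA matches lie well away from the transcription start, so neither is shown to be a TATA box. All these motif counts are matches of letters only, and the CpG count does not measure methylation. The motifs do not contain each other, and promoter windows for 6 of the 9 genes were in the table used.

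In menin-null PILECs, Nap1l5 fell and Magel2 rose, relative to wild-type PILECs, and the other 7 genes did not pass the test. Across all genes 4.42% were lower and 2.26% higher in this comparison, so 1 gene of 9 in each direction is not a result about the 9 genes as a set. In menin-null mESCs, Nnat and Magel2 fell relative to wild-type mESCs and none of the 9 genes rose, where 2.36% of all genes fell and 1.29% rose. In the mESCs, markers of other cell types moved as well: 3 of 12 endoderm markers fell and none rose in menin-null cells (list means 7.94 to 7.96 in menin-null and 8.18 to 8.22 in wild-type mESCs), 4 of 15 neuron markers fell and 3 rose, and 1 of 10 fibroblast markers rose. Their part in the Nnat and Magel2 results was not tested. The median difference of the 9 genes was -0.13 in PILECs and -0.10 in mESCs, against -0.01 and 0.01 over all genes. At the study's threshold, which asks for 2-fold or more and a p under 0.005 before adjustment, Nap1l5 was the member called in PILECs (0.544% of all genes were lower by this rule) and Nnat the member called in mESCs (0.368%).

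**Figure D1:**
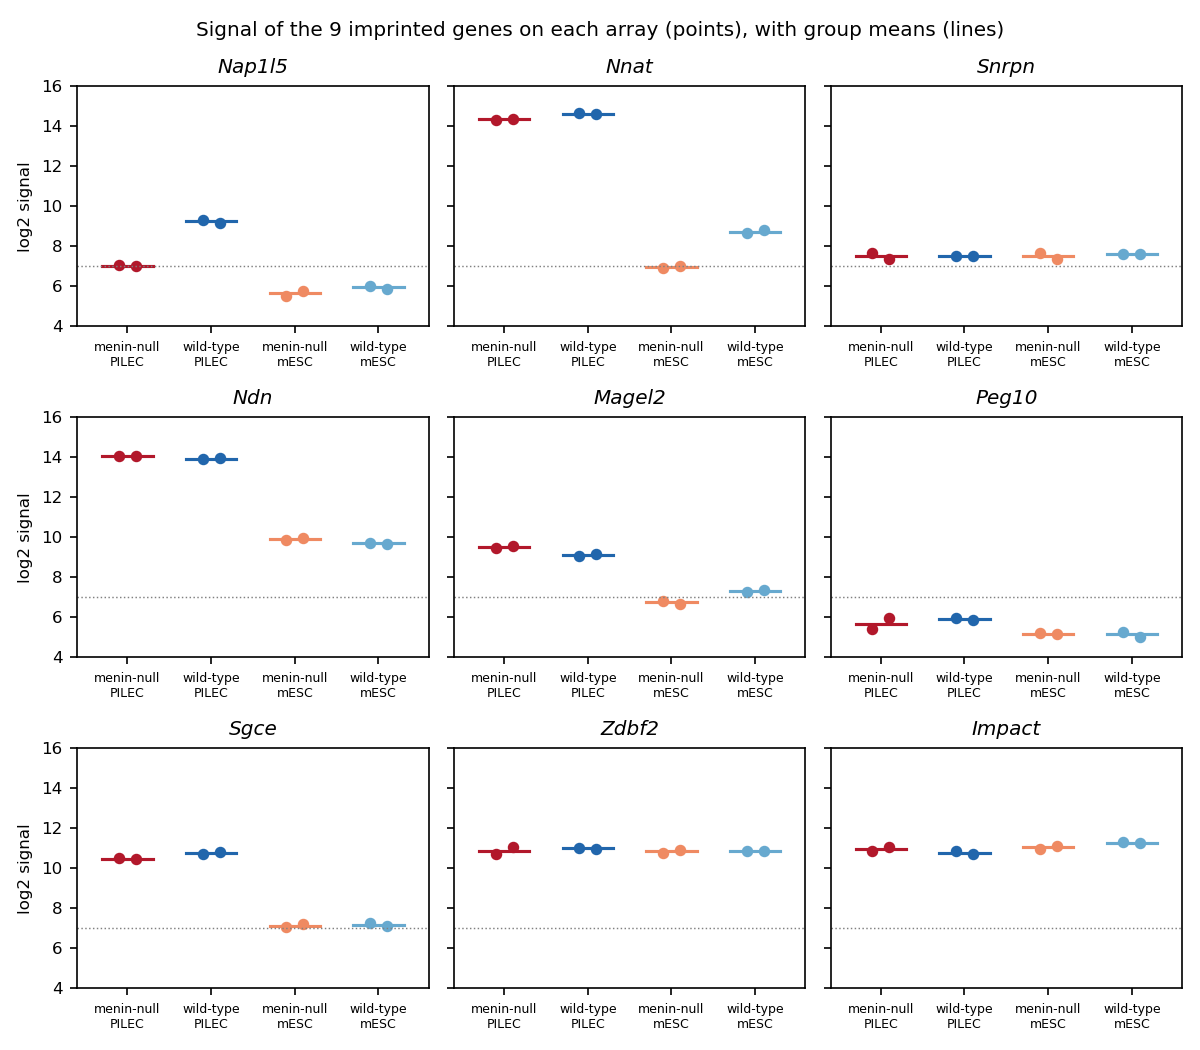
Log2 signal (vertical axis, the same range in each panel) of the 9 imprinted genes on each of the 8 arrays, with menin-null PILECs, wild-type PILECs, menin-null mESCs and wild-type mESCs from left to right; points are arrays, lines group means (n = 2) and the dotted line the limit of 7. Nap1l5 stood at 7.03 in menin-null and 9.25 in wild-type PILECs, and Nnat at 6.98 in menin-null and 8.73 in wild-type mESCs.

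**Figure D2:**
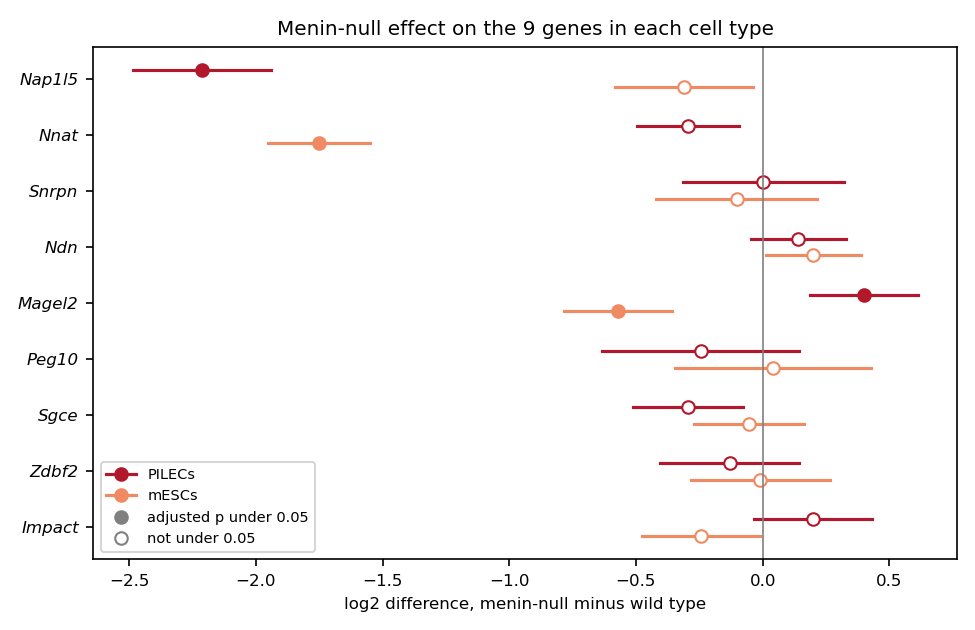
Log2 difference, menin-null minus wild type (horizontal axis), of each of the 9 genes in PILECs (dark red) and mESCs (orange), with 95% intervals from the model. Filled points had an adjusted p under 0.05: Nap1l5 (-2.21) and Magel2 (0.40) in PILECs, Nnat (-1.75) and Magel2 (-0.57) in mESCs.

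Nap1l5 encodes a protein of the nucleosome assembly protein 1 family, most of whose members carry histones. It is a gene on chromosome 6 that lies inside its host gene Herc3. Its log2 signals were 7.05 and 7.01 in menin-null PILECs, against 9.32 and 9.17 in wild-type PILECs. In mESCs they were 5.50 and 5.79 in menin-null cells and 6.03 and 5.88 in wild-type cells. Both wild-type PILEC arrays stood above the other 6 arrays by a wide gap, and all 4 mESC arrays were under the limit of 7. The gene fell 4.64-fold in menin-null PILECs (difference -2.21, SE 0.118, adjusted p = 0.000201). The menin-null PILEC arrays were at the limit of 7, so this fold is approximate. In mESCs the difference was -0.31 (SE 0.118, adjusted p = 0.212), and although the arrays of the genotypes did not overlap, this did not pass. The menin-null effect differed between PILECs and mESCs by -1.90 (SE 0.166, adjusted p = 0.00276), a call lost without moderation of the variances (adjusted p = 0.0595). Both mESC means (5.64 in menin-null and 5.96 in wild-type cells) were under the limit of 7, where a difference between genotypes is not shown to be measurable. Herc3, a ubiquitin ligase gene, differed by 0.23 in PILECs (adjusted p = 0.384) and by 0.03 in mESCs (adjusted p = 0.942), with neither past the test. Abcg2, the measured gene next to Herc3, fell by 0.82 in menin-null PILECs (adjusted p = 0.00520). No other measured neighbour followed around Nap1l5 passed in that comparison.

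Nap1l5 still rose with differentiation in the menin-null line. It was 2.62-fold higher in menin-null PILECs than in menin-null mESCs (difference 1.39, adjusted p = 1.38e-05) and 9.78-fold higher in wild-type PILECs than in wild-type mESCs (difference 3.29, adjusted p = 1.55e-07). The genes whose signals over the 8 arrays followed Nap1l5 most closely, by the root mean square difference after each gene was centred on its own mean, were Myh3 (0.294), Myl4 (0.300) and Myog (0.315), out of 11011 candidates with a mean of at least 7. Myh3 and Myl4 encode the embryonic myosin heavy chain and a myosin light chain, and Myog encodes the muscle transcription factor myogenin. Myog averaged 7.09 ± 0.44 in menin-null PILECs and 9.38 ± 0.19 in wild-type PILECs. These 3 genes were picked for their likeness to Nap1l5, so their own differences are no separate result.

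Muscle markers as a list moved with Nap1l5. Of 12 striated muscle markers, 9 fell in menin-null PILECs relative to wild-type PILECs and none rose, with a median difference of -1.62 against -0.01 over all genes. Myh3, Myl4 and Myog are among these 9. The mean log2 signal of the list per array was 7.40 to 7.76 in menin-null PILECs, 8.89 to 9.16 in wild-type PILECs, 6.69 to 6.71 in menin-null mESCs and 6.68 to 6.80 in wild-type mESCs. Of the 12, 9 had a mean of at least 7 in menin-null PILECs, 10 in wild-type PILECs and 4 in mESCs of either genotype. Of 15 neuron markers, 1 rose and none fell in menin-null PILECs, and their mean per array was 12.05 to 12.23 in menin-null PILECs and 12.00 to 12.08 in wild-type PILECs. Of 12 pluripotency markers 6 fell and none rose (median -0.63), with list means of 8.11 on both menin-null arrays and 8.50 to 8.76 on the wild-type arrays. Of 12 endoderm markers 5 rose and 1 fell (median 0.61), at list means of 8.12 to 8.21 in menin-null and 7.61 to 7.69 in wild-type PILECs, and 3 of 9 glia markers rose and none fell. Of 10 fibroblast markers 1 rose and 2 fell. The part of these markers in the Nap1l5 and Magel2 results in PILECs was not tested, and fewer cells of a type cannot be told apart from less RNA per cell.

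**Figure D3:**
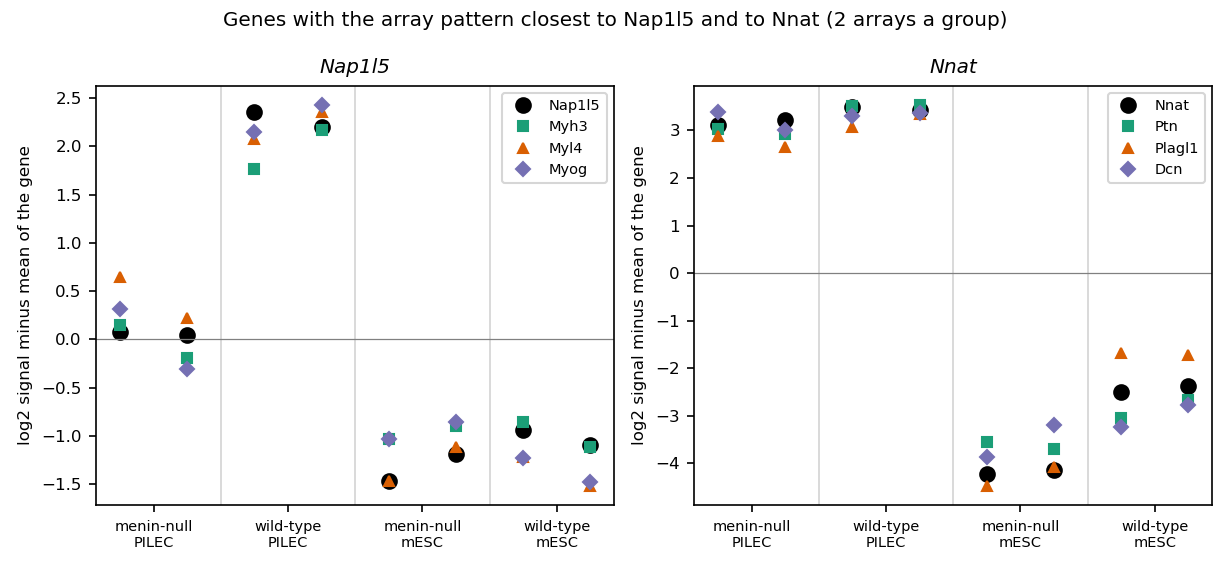
Log2 signal minus the gene's mean over the 8 arrays (vertical axis) of Nap1l5 (left) and Nnat (right), each in black with the 3 genes whose pattern was closest, over the 4 groups with 2 arrays each. Myh3, Myl4 and Myog share with Nap1l5 the high wild-type PILEC arrays, and Ptn, Plagl1 and Dcn share with Nnat the high PILEC and low mESC arrays.

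Nnat encodes neuronatin, a small membrane protein of the endoplasmic reticulum that is found in developing neurons and in the beta cells of the islet, where it supports insulin secretion in mice. Its probe set gave 14.28 and 14.37 in menin-null PILECs, against 14.65 and 14.59 in wild-type PILECs. Menin-null mESCs gave 6.93 and 7.03, against 8.67 and 8.79 in wild-type mESCs. The PILEC arrays were close to the upper end of the signals in these data, the menin-null mESC arrays were at the limit of 7, and the genotypes did not overlap in either cell type. In menin-null mESCs Nnat fell 3.36-fold (difference -1.75, SE 0.0868, adjusted p = 0.000270). In PILECs the difference was -0.29 (SE 0.0868, adjusted p = 0.0913), and it was called with the variance fitted as a trend on the mean (adjusted p = 0.00958) and when dim genes were left out (adjusted p = 0.0487). The difference between the effects in PILECs and in mESCs was 1.46 (SE 0.123, adjusted p = 0.00260). Whether the high PILEC signals were compressed was not tested.

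Nnat rose with differentiation in both genotypes, in menin-null cells from an mESC mean of 6.98, under the limit of 7. It was higher by 7.35 in menin-null PILECs than in menin-null mESCs (about 163-fold, adjusted p = 8.94e-09) and by 5.89 in wild-type PILECs than in wild-type mESCs (59.4-fold, adjusted p = 1.90e-08). Its closest genes in pattern were Ptn (root mean square difference 0.380), Plagl1 (0.464) and Dcn (0.487), out of 11010 candidates. Ptn encodes the growth factor pleiotrophin, Dcn the matrix proteoglycan decorin, and Plagl1 is itself an imprinted gene, for a zinc finger transcription factor. Plagl1 averaged 6.19 ± 0.29 in menin-null mESCs and 8.77 ± 0.03 in wild-type mESCs. As Ptn, Plagl1 and Dcn were picked for their likeness to Nnat, this difference lends no separate weight to that of Nnat.

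Nnat lies inside Blcap, a host gene on chromosome 2. Blcap rose by 0.57 in menin-null PILECs (means 12.59 in menin-null and 12.03 in wild-type PILECs, adjusted p = 0.0123). In mESCs it differed by -0.16 (adjusted p = 0.380). Its menin-null effect differed between PILECs and mESCs by 0.72 (adjusted p = 0.0264). With differentiation Blcap rose by 2.90 in menin-null and 2.17 in wild-type cells.

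Magel2, Ndn and Snrpn lie in 1 imprinted domain on chromosome 7, whose human counterpart is lost from the paternal chromosome in Prader-Willi syndrome. Magel2 encodes a protein of the melanoma antigen (MAGE) family that acts with a ubiquitin ligase in the recycling of membrane proteins and is prominent in the hypothalamus. Its log2 signals were 9.47 and 9.58 in menin-null PILECs, against 9.07 and 9.18 in wild-type PILECs. They were 6.81 and 6.67 in menin-null mESCs, against 7.28 and 7.34 in wild-type mESCs. The genotypes did not overlap in either cell type, and the menin-null arrays were the high ones in PILECs and the low ones in mESCs. In menin-null mESCs Magel2 fell 1.49-fold (difference -0.57, SE 0.0919, adjusted p = 0.0191), and in menin-null PILECs it rose 1.32-fold (difference 0.40, SE 0.0919, adjusted p = 0.0449). The menin-null mESC mean was 6.74, under the limit of 7, so folds against that group are approximate.

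The effects of Magel2 in the cell types differed by 0.97 (SE 0.130, adjusted p = 0.0143). These calls were near the threshold. The PILEC call was lost when any wild-type array or any menin-null PILEC array was left out (adjusted p = 0.0950 to 0.230) and over all probe sets (adjusted p = 0.0674). The mESC call was lost without either wild-type mESC array (adjusted p = 0.137 and 0.145) and, narrowly, without either wild-type PILEC array (adjusted p = 0.0503), which enter through the shared spread. The difference of the effects was lost without any wild-type array (adjusted p = 0.0647 to 0.0755). With differentiation Magel2 rose by 2.79 in menin-null cells (6.90-fold, adjusted p = 9.47e-08) and by 1.82 in wild-type cells (3.52-fold, adjusted p = 7.79e-07). Its closest genes in pattern were Susd4 (0.117), Atp9a (0.126) and Pisd-ps3 (0.130).

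Ndn encodes necdin, a MAGE protein of postmitotic neurons that restrains cell growth. Its log2 signals were 14.06 and 14.05 in menin-null PILECs and 13.89 and 13.94 in wild-type PILECs. In mESCs they were 9.83 and 9.96 in menin-null cells and 9.72 and 9.67 in wild-type cells. PILECs and mESCs stood far apart and the genotypes were close together, with the menin-null arrays slightly above. The differences of 0.14 in PILECs (SE 0.0811, adjusted p = 0.347) and 0.20 in mESCs (adjusted p = 0.243) did not pass. The mESC difference was called with the variance fitted as a trend (adjusted p = 0.0391). Ndn rose by 4.16 with differentiation in menin-null cells (17.9-fold, adjusted p = 2.13e-08) and by 4.22 in wild-type cells (18.6-fold, adjusted p = 2.81e-08).

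Of the 8 Ndn probe sets, the 5 with a mean of at least 7 rose by 3.94 to 4.38 with differentiation in menin-null cells and by 3.86 to 4.32 in wild-type cells. The other 3 had means of 4.10 to 4.86 and differed by at most 0.62. Of the genes closest to Ndn in pattern, Fez1 (0.114), which encodes a protein of axon outgrowth, is followed by Tspyl4 (0.116), of the wider nucleosome assembly protein family, and Zcchc18 (0.121).

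Snrpn encodes SmN, a protein of the spliceosome made mainly in neurons. Its transcript also carries the reading frame Snurf, and the probe sets of this locus gave unlike values. The probe set listed under Snrpn alone gave 7.67 and 7.36 in menin-null PILECs and 7.53 and 7.49 in wild-type PILECs. It gave 7.67 and 7.34 in menin-null mESCs and 7.60 and 7.62 in wild-type mESCs. The menin-null arrays spanned the wild-type arrays in both cell types, and no comparison passed, with adjusted p-values between 0.553 and 0.993. Of the 6 probe sets listed under both Snurf and Snrpn, 5 rose with differentiation in each genotype.

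The brightest of these shared probe sets had log2 signals of 13.80 and 13.82 in menin-null PILECs, against 13.61 and 13.51 in wild-type PILECs. In mESCs it had 12.54 and 12.48 in menin-null cells and 12.76 in both wild-type arrays. The menin-null arrays were the high ones in PILECs and the low ones in mESCs, as for Magel2, but its differences of 0.25 in PILECs (adjusted p = 0.165) and -0.25 in mESCs (adjusted p = 0.193) did not pass. The 4 bright shared probe sets rose with differentiation by 1.06 to 1.30 in menin-null cells and by 0.61 to 0.80 in wild-type cells. Which transcript each of them detects was not tested, and none of the 6 was called between genotypes.

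**Figure D4:**
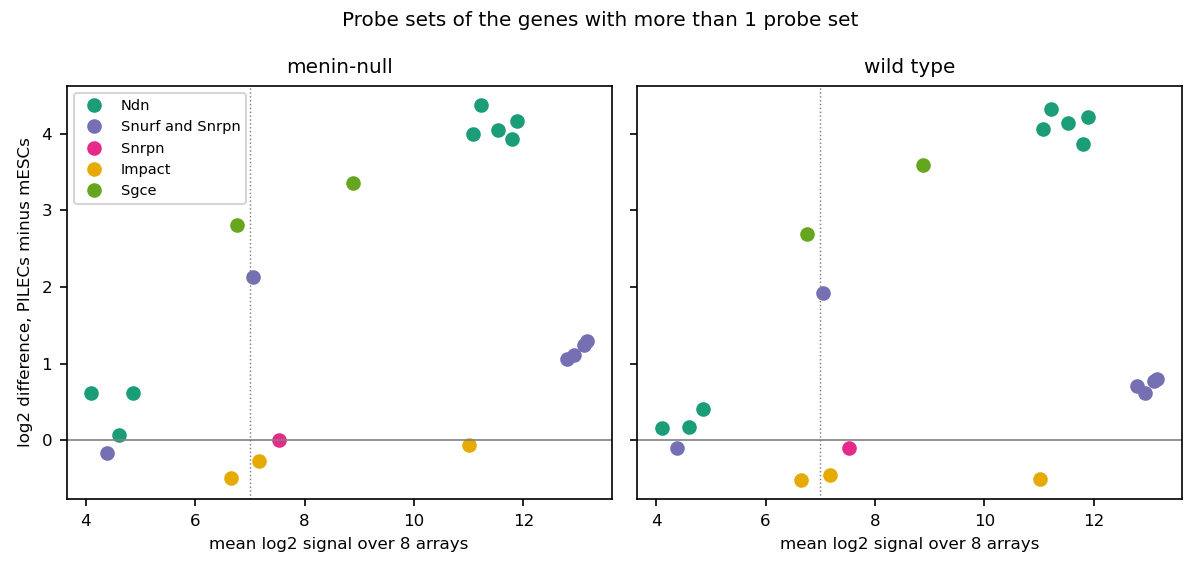
Log2 difference, PILECs minus mESCs (vertical axis), against the mean log2 signal over the 8 arrays (horizontal axis) for each probe set of Ndn, Impact, Sgce and Snrpn and for those listed under both Snurf and Snrpn, in menin-null (left) and wild-type cells (right), with the limit of 7 dotted. The 5 bright Ndn probe sets lie between 3.86 and 4.38, while the probe set listed under Snrpn alone lies at 0.00 in menin-null and -0.10 in wild-type cells.

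Around these 3 genes, 14 other measured genes of chromosome 7 were followed. In menin-null PILECs, Ipw rose by 0.61 (adjusted p = 0.0209) and A230006K03Rik by 0.75 (adjusted p = 0.0165), both noncoding transcripts of the domain, and Peg12 fell by 0.71 (adjusted p = 0.0438). All 3 of these had means under 7 in every group. In menin-null mESCs Snhg14, the long noncoding RNA of the domain, fell by 0.76 (adjusted p = 0.0366). Mkrn3, a paternally expressed RING finger gene next to Magel2, differed by 0.26 in PILECs (adjusted p = 0.427) and -0.03 in mESCs (adjusted p = 0.944). Ube3a, a ubiquitin ligase gene that neurons express from the maternal copy, differed by -0.25 in PILECs (adjusted p = 0.134) and -0.02 in mESCs (adjusted p = 0.948).

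**Figure D5:**
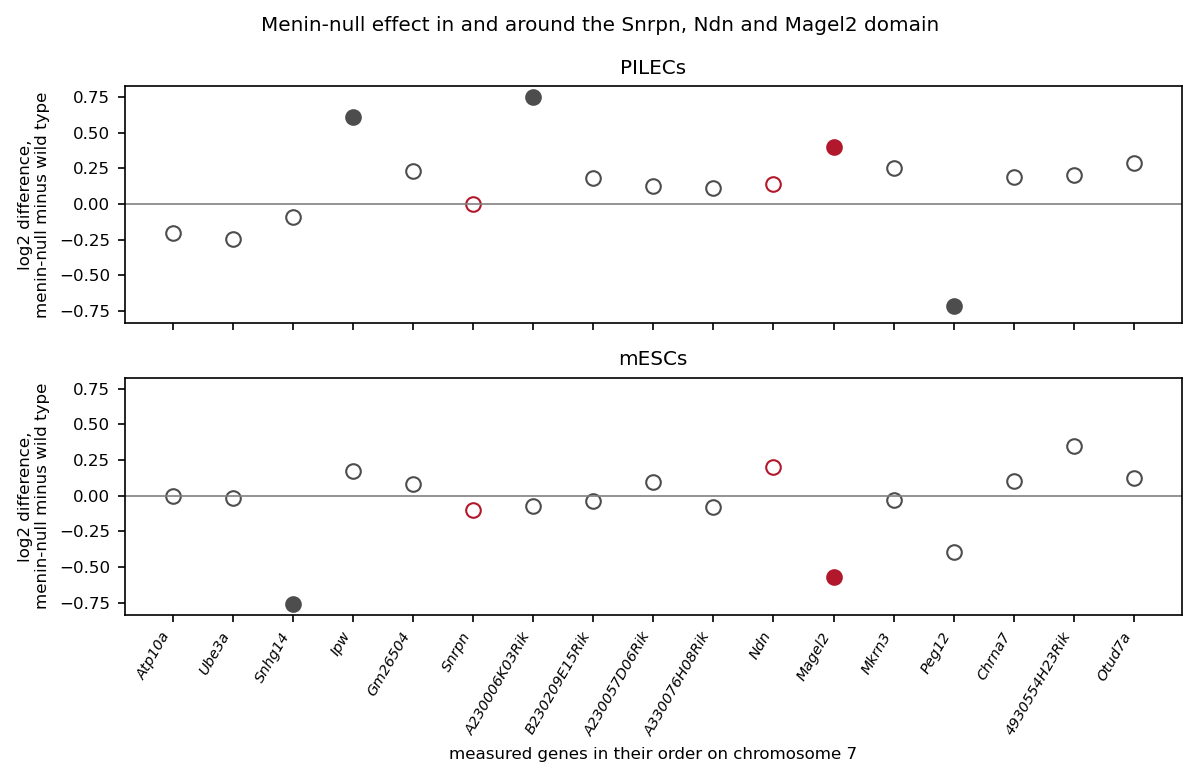
Log2 difference, menin-null minus wild type (vertical axis), of measured genes in their order along chromosome 7 (horizontal axis, not to scale) from 5 genes before Snrpn to 5 genes after Magel2, in PILECs (top) and mESCs (bottom). Red points are Snrpn, Ndn and Magel2, and filled points had an adjusted p under 0.05, such as Magel2 at 0.40 in PILECs and -0.57 in mESCs.

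Sgce and Peg10 are neighbours on chromosome 6 that are transcribed in opposite directions from adjacent starts. Sgce encodes epsilon-sarcoglycan, a membrane protein whose loss in humans causes myoclonus-dystonia. It had log2 signals of 10.49 and 10.46 in menin-null PILECs, against 10.72 and 10.82 in wild-type PILECs, and the genotypes did not overlap. In mESCs it had 7.05 and 7.20 in menin-null cells and 7.24 and 7.11 in wild-type cells, which overlapped. The difference of -0.30 in PILECs did not pass (SE 0.0933, adjusted p = 0.108), nor did that of -0.05 in mESCs (adjusted p = 0.815). Sgce rose 10.2-fold with differentiation in menin-null cells (difference 3.35, adjusted p = 5.11e-08) and 12.1-fold in wild-type cells (difference 3.59, adjusted p = 4.98e-08). Its other probe set, with a mean of 6.76, rose by 2.81 in menin-null and by 2.69 in wild-type cells. The genes closest in pattern were Ppp1r3c (0.114), Maged2 (0.123), a MAGE gene, and Ttc28 (0.126).

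Peg10, a gene derived from a retrotransposon and needed for the placenta in mice, was below the limit of 7 on all 8 arrays. Its log2 signals were 5.41 and 5.94 in menin-null PILECs and 5.97 and 5.87 in wild-type PILECs. Menin-null mESCs had 5.21 and 5.15, and wild-type mESCs 5.25 and 5.03. The genotypes overlapped in each cell type, with differences of -0.25 in PILECs (adjusted p = 0.430) and 0.04 in mESCs (adjusted p = 0.927). It rose with differentiation by 0.49 in menin-null cells (adjusted p = 0.0313) and by 0.78 in wild-type cells (adjusted p = 0.00363). The rise in menin-null cells was 0.22 without menin-null PILEC array 2 (adjusted p = 0.161), and it also lost the call without either menin-null mESC array or either wild-type PILEC array (adjusted p = 0.0548 to 0.0820).

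Zdbf2 and Impact were bright on every array and varied little. Zdbf2, a zinc finger gene of chromosome 1 whose paternal copy is switched on early in the mouse embryo, had log2 signals of 10.70 and 11.05 in menin-null PILECs and 11.03 and 10.98 in wild-type PILECs. It had 10.78 and 10.89 in menin-null mESCs and 10.83 and 10.85 in wild-type mESCs. The genotypes overlapped, and the differences were -0.13 in PILECs (95% interval -0.40 to 0.14) and -0.01 in mESCs (95% interval -0.28 to 0.27). Between PILECs and mESCs the difference was 0.04 in menin-null cells and 0.17 in wild-type cells, neither past the test. After another quantile normalisation it was 0.30 (adjusted p = 0.0246) in menin-null and 0.35 (adjusted p = 0.0126) in wild-type cells.

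Impact, a gene of chromosome 18, encodes a neuronal protein that binds GCN1 and so restrains the amino acid sensor GCN2. Its log2 signals were 10.87 and 11.07 in menin-null PILECs, against 10.84 and 10.71 in wild-type PILECs. Menin-null mESCs had 10.97 and 11.09, against 11.29 and 11.26 in wild-type mESCs. Here the wild-type mESC arrays were the high ones and the wild-type PILEC arrays the low ones. Impact fell by 0.50 with differentiation in wild-type cells (1.42-fold, adjusted p = 0.00243), and its 3 probe sets fell by 0.46 to 0.52. In menin-null cells the difference was -0.06 (adjusted p = 0.615), and its sign turned after another quantile normalisation (0.21, adjusted p = 0.0451). In the fit over all probe sets, the other 2, with means of 7.17 and 6.65, differed there by -0.27 (adjusted p = 0.0831) and -0.49 (adjusted p = 0.00270), of which the second fell, so the probe sets of Impact disagreed in menin-null cells. The menin-null differences of 0.20 in PILECs and -0.24 in mESCs did not pass (adjusted p = 0.286 and 0.251), and nor did the difference between them (0.44, adjusted p = 0.148), which was 0.19 and 0.03 by the other 2 probe sets.

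Set side by side, 6 of the 9 genes rose with differentiation in menin-null cells and none fell, and 6 rose and 1 fell in wild-type cells. Snrpn is counted here by the probe set listed under it alone, which did not rise. Of the 6 probe sets listed under both Snurf and Snrpn, 5 rose in each genotype, so the count for Snrpn depends on the probe set. Over all genes 28.9% rose and 36.1% fell in menin-null cells, and 27.8% rose and 35.3% fell in wild-type cells. The median difference of the 9 genes was 1.39 in menin-null cells and 1.82 in wild-type cells, against -0.07 and -0.08 over all genes. Rises from mESC means under 7 (Nap1l5 and Peg10 in both genotypes, Nnat and Magel2 in menin-null cells) are approximate, so the rises were not ranked. The differences in menin-null and in wild-type cells share no arrays, but their tests share an estimate of the spread over all 8 arrays. Both lines also went through the same protocol. The neuron markers rose by a median of 4.09 in menin-null and 4.12 in wild-type cells. Of 10 fibroblast markers 9 rose and 1 fell in each genotype. Of 9 glia markers 6 rose in menin-null and 5 in wild-type cells, and none fell. Of 12 striated muscle markers 8 rose and 2 fell in menin-null cells, and 9 rose and 1 fell in wild-type cells. Of 12 endoderm markers 7 rose and 3 fell in menin-null cells, and 2 rose and 8 fell in wild-type cells. Most markers of several cell types, though not of endoderm in wild-type cells, thus rose where 6 of the 9 genes did. The part of these markers in the rises was not tested. Of the 19 probe sets with 1 symbol, 13 rose and 1 fell in menin-null cells, where 28.8% of all probe sets with a symbol rose and 33.8% fell. In wild-type cells 12 rose and 3 fell, where 27.5% rose and 32.9% fell. Ndn alone had 8 of the 19 probe sets, of which 7 were called in some comparison. Probe sets of a gene are repeated measures, so these are not counts of independent units. Of the 19, 7 had a mean under 7.

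For 3 of the 9 genes the menin-null effect differed between the cell types: it was lower in PILECs than in mESCs for Nap1l5 (1.57% of all genes were called in this direction) and higher for Nnat and Magel2 (1.5%). The other 6 differences of effects ran from -0.29 for Peg10 to 0.44 for Impact, with adjusted p-values of at least 0.148.

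Other paternally expressed imprinted genes were followed as a list of 21, of which 15 were measured. In menin-null PILECs 1 rose and 2 fell: Rasgrf1, for a Ras exchange factor of neurons, rose by 0.41 (adjusted p = 0.0379), Slc38a4, for an amino acid transporter, fell by 1.57 (adjusted p = 0.000262), and Peg12 fell as given above. In menin-null mESCs 3 fell and none rose. Plagl1 fell by 2.58 (adjusted p = 0.000773), to a mean of 6.19, under the limit of 7. Mest, for a hydrolase of mesoderm, fell by 2.43 (adjusted p = 0.00114), and Dlk1, for a Delta-like membrane protein, by 1.49 (adjusted p = 0.00478). All 3 were closer between genotypes in PILECs, at -0.44 for Plagl1, -0.17 for Mest and 0.09 for Dlk1, and their effects differed between the cell types (adjusted p = 0.00625 for Plagl1, 0.00647 for Mest and 0.0126 for Dlk1). With differentiation 11 of the 15 rose and 3 fell in menin-null cells, and 12 rose and 3 fell in wild-type cells. Peg3, a zinc finger gene, rose by 3.29 in menin-null and 3.20 in wild-type cells.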

How the data were processed

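RNA of 8 samples was hybridised to 1 Affymetrix array each, and the authors deposited 1 log2 value per probe set and array, normalised across arrays. RMA and Partek stand in the submitters' processing notes without versions, while the study's methods state that Microarray Analysis Suite was used, so which software made the values is not settled. The genome build of the array annotation is not given in the sources used here. Sample titles gave the groups and replicate numbers, and 0 value columns belonged to no sample. Array number, not read depth, limits the precision.

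Of 45101 probe sets, 64 controls, 9160 without a symbol and 932 with several symbols were left out of the gene-level fit, and each of 18193 genes was represented by its brightest probe set (a choice for 9010 genes). Among 34945 probe sets with 1 symbol, 34741 were found by Entrez identifier in a gene list of GRCm38.p6 that was used for names and gene order. A mean per group was fitted to the 8 arrays by limma 3.58.1 (R 4.3.3) with eBayes moderation (4 residual and 3.72 prior degrees of freedom), and p-values were adjusted over all genes. An exact permutation test of 2 arrays against 2 cannot go below p = 0.333. The values were handled with the R package data.table (version 1.17.8) and plots made with matplotlib 3.10.9.

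The members and lists were chosen with earlier results of these data known. All 9 genes were named, with Men1, called genes of the lists, and the 3 genes closest in pattern to each member whose group means spanned at least 2. The neighbours were the 5 measured genes on either side of each member. Alternatives were normalisation, a filter on dim genes, the choice of probe set, moderation, the arrays fitted, the replicate block, the study's threshold and leaving out each array. The fit was tested on simulated data.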

Additional observations from a re-analysis of the deposited data

Results flagged for a closer look

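The menin-null effect differed between PILECs and mESCs for 3 of the 9 genes, by a test of the difference itself in the limma fit, where 1.57% of all genes were called lower and 1.5% higher. For Nap1l5 the effect was -2.21 in PILECs and -0.31 in mESCs, a difference of -1.90 (adjusted p = 0.00276), at mESC signals under the limit of 7 in both genotypes and with the call lost without moderation (adjusted p = 0.0595). For Nnat it was -0.29 in PILECs and -1.75 in mESCs, a difference of 1.46 (adjusted p = 0.00260). For Magel2 it was 0.40 in PILECs and -0.57 in mESCs, a difference of 0.97 (adjusted p = 0.0143), with opposite signs in the cell types. The menin-null mESC means of Nnat and Magel2 were also under the limit of 7. The call of Magel2 was lost under 13 of 19 alternatives in PILECs, 7 of 19 in mESCs and 6 of 18 for the difference. Striated muscle markers moved with Nap1l5 in PILECs, with 9 of 12 lower in menin-null cells. Myh3, Myl4 and Myog, which were picked for their likeness to Nap1l5, are among these 9. Of 12 pluripotency markers 6 were lower there as well. The part of these markers in the Nap1l5 result was not tested. No group had enough arrays for a search for single outlying arrays.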

How the results depend on the processing

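Among the values of single genes under each alternative, 769 kept their direction and side of the threshold, 38 lost the call, 7 gained it and 22 turned sign. Changes of threshold, moderation, variance trend, block or dim-gene filter leave the log2 difference as it was. So does leaving out an array of a group not compared. In those alternatives the direction could not change, so the 769 do not measure robustness of direction. None of the 22 had been called in the deposited values, and 1 was called after the turn, Impact between menin-null PILECs and mESCs (0.21 after another quantile normalisation, against -0.06). The same difference of Snrpn was -0.082 after that normalisation. In the difference of the effects, Ndn was 0.058 with all probe sets averaged and Sgce 0.13 without probe sets whose names end in _s_at, _x_at or _a_at. The other turns came from leaving out 1 array. Over these fits the menin-null difference in PILECs ran from -0.15 to 0.16 for Snrpn, -0.51 to 0.022 for Peg10 and -0.30 to 0.042 for Zdbf2. In mESCs it ran from -0.27 to 0.061 for Snrpn, -0.071 to 0.15 for Peg10, -0.13 to 0.022 for Sgce and -0.063 to 0.045 for Zdbf2. Between menin-null PILECs and mESCs it ran from -0.16 to 0.17 for Snrpn, -0.13 to 0.22 for Zdbf2 and -0.16 to 0.038 for Impact. The difference of the effects ran from -0.058 to 0.27 for Snrpn, -0.12 to 0.0021 for Ndn and -0.29 to 0.051 for Zdbf2. Quantile normalisation also moved the split of all genes called in PILECs, where 43.9% of 1379 genes were higher against 33.9% of 1216 in the deposited values. The number of the 9 genes that fell in menin-null PILECs was 2 instead of 1 when dim genes were left out and with a variance trend (Nnat joined Nap1l5). The number that rose there was 0 instead of 1 (Magel2) without probe sets whose names end in _s_at, _x_at or _a_at, over all probe sets with 1 symbol, over those with 1 or several symbols (an alternative chosen after seeing the data), without moderation, on the 4 arrays of the groups compared and at the study's threshold. In menin-null mESCs 1 instead of 2 genes fell without probe sets whose names end in _s_at, _x_at or _a_at (which leaves Nnat unmeasured), without moderation, on the 4 arrays alone and at the study's threshold, and 1 instead of 0 rose with a variance trend (Ndn). In the difference of the effects, 1 instead of 2 genes was higher without probe sets whose names end in _s_at, _x_at or _a_at, without moderation and at the study's threshold, and 0 instead of 1 was lower without moderation (Nap1l5, adjusted p = 0.0595). With differentiation, the 6 genes that rose became 7 in each genotype after quantile normalisation (Zdbf2 in both, with Impact gained and Peg10 lost in menin-null cells) and 5 in each at the study's threshold and among genes above the limit of 7 (without Peg10). In menin-null cells Peg10 also lost its call without moderation (adjusted p = 0.115) and on the 4 arrays alone (adjusted p = 0.0689). In those cells 1 instead of 0 genes fell when all probe sets of a gene were averaged (Impact), and 0 instead of 1 fell in wild-type cells at the study's threshold. Leaving out 1 array at a time gave 1 to 2 genes lower in menin-null mESCs, 0 to 1 higher in menin-null PILECs and 1 to 2 higher in the difference of the effects. The cause of these shifts was not tested.

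Replicate numbers only name the cultures: deviations of same-numbered arrays correlated at -0.277 to 0.209 over 6 pairs of groups. With the replicate number as a block, 0 instead of 1 of the 9 genes rose in menin-null PILECs (Magel2, adjusted p = 0.0779), and all genes called were 410 in mESCs, against 663 without the block, and 734 in PILECs, against 1216. Leaving out dim genes gives no value for Peg10.

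With 2 arrays a group and 1 line per genotype, the SE of 0.0811 to 0.167 for the 9 genes sets the limit of detection. Nap1l5 and Peg10 in mESCs, Peg10 in PILECs, and Nnat and Magel2 in menin-null mESCs had means under the limit of 7, where a measured background is not analysed here.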

Other observations

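Maternally expressed imprinted genes were followed as a list of 26, of which 23 were measured. In menin-null PILECs Igf2r, for a receptor that clears insulin-like growth factor 2, rose by 0.99 (adjusted p = 0.00306) and Mirg fell by 0.41 (adjusted p = 0.0388). In menin-null mESCs 5 fell: the noncoding RNAs Meg3 by 2.97, Mirg by 2.95 and Rian by 2.86 (adjusted p = 7.43e-06, 1.27e-05 and 0.00392), Gatm by 0.70 (adjusted p = 0.0338) and Calcr by 0.65 (adjusted p = 0.0305), the last 2 at means under 7. Cdkn1c, for a cell cycle inhibitor, rose there by 0.51 (adjusted p = 0.0338). With differentiation 9 of the 23 rose and 7 fell in menin-null cells, and 7 rose and 10 fell in wild-type cells.

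Relatives and partners of the 9 genes were followed as a list of 31, of which 27 were measured. In menin-null mESCs 1 fell and none rose: Nap1l2, a neuronal relative of Nap1l5, by 1.07 (means 5.79 in menin-null and 6.86 in wild-type mESCs, adjusted p = 0.0106). Its difference in PILECs was 0.03, and the effects differed between the cell types by 1.10 (adjusted p = 0.0343). In menin-null PILECs Blcap rose and Snrpb, for a core protein of the spliceosome related to SmN, fell by 0.32 (adjusted p = 0.0466). With differentiation Nap1l2 rose by 3.82 and Nap1l3 by 4.18 in menin-null cells, and by 2.72 and 3.39 in wild-type cells. Nap1l1, the ubiquitous member of the family, fell by 0.52 in menin-null and by 0.31 in wild-type cells. Snrpb fell by 1.10 in menin-null and by 0.72 in wild-type cells.

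Of 64 measured neighbours of the 9 genes, 3 rose and 5 fell in menin-null PILECs, and none rose and 1 fell in menin-null mESCs. Over all genes 2.26% rose and 4.42% fell in PILECs and 1.29% rose and 2.36% fell in mESCs.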
